A study of Homo sapiens with 36 samples.

Results

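The genes described here are 9 members of the postsynaptic side of the synapse: the scaffolds DLG2, DLG4, SHANK1, SHANK2, SHANK3 and HOMER1, and the neuroligins NLGN1, NLGN2 and NLGN3. They were taken by symbol from a table of 62710 gene identifiers, and each symbol matched 1 identifier. Neuroligins are adhesion molecules of the postsynaptic membrane that bind neurexins on the facing axon. Inside the cell their tails meet the MAGUK scaffolds, of which DLG4 (the protein PSD-95) and DLG2 (PSD-93) hold receptors in the excitatory postsynaptic density. SHANK proteins form the deeper layer of that density, and HOMER1 ties them to metabotropic glutamate receptors; NLGN2 is the neuroligin best known from inhibitory synapses.

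RNA was measured in the human embryonic stem cell line H9, turned into neurons by doxycycline-dependent expression of the proneural factor NGN2. Cells carried 1 of 3 genotype labels for RAI1, a chromatin-associated regulator: WT, heterozygous mutant (HET, RAI1+/-) and knockout mutant (KO, RAI1-/-). Each genotype was harvested at days 0, 3 and 7 with 4 libraries, which made 9 groups and 36 libraries. All cultures, WT included, were plated with the ROCK inhibitor Y-27632 at 10 µM and kept in mTeSR Plus as stem cells. Differentiation medium was Neurobasal-A with GlutaMAX, B27, GDNF, NT3 and CultureOne. The labels call the libraries biological replicates but do not say how many clones stood behind a genotype or whether replicates were separate cultures, so the p-values measure the spread between these libraries. WT was the control in both mutant comparisons, so those comparisons share libraries.

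Libraries held 23950041 to 56681064 counts. The RAI1 count did not check the labels: RAI1 had a mean of 52.2 CPM (counts relative to library size, per 1e6 counts, scaled by TMM over all libraries) in WT at day 7 and 84.9 CPM in KO, a difference of 0.69 log2 (SE 0.22, adjusted p = 0.0296, edgeR). That call was lost without any of WT replicates 1 to 3 or KO replicates 1 to 3 (adjusted p = 0.069 to 0.083). At days 0 and 3 it was 0.18 and 0.27 log2 in KO against WT, without passing the test, and the label of a library was therefore taken as given. All 10 neuronal markers examined (among them TUBB3, MAP2 and STMN2) were in the table. Their summed level was 242 to 697 CPM over the day 0 libraries, and by day 7 WT libraries ranged from 6465 to 12979 CPM, HET libraries from 12951 to 17320 CPM and KO libraries from 14569 to 20017 CPM. The 7 pluripotency markers went from 2374 to 5387 CPM at day 0 down to 67.9 to 357 CPM at day 7, where TDGF1 was at 3 counts or fewer in every library of each genotype. The labels call all libraries neurons, day 0 included, where the pluripotency sum was above the neuronal sum in every library. A few small structural RNAs, 5 in number, took 4.02 to 6.45% of a day 0 library and 2.84 to 27.5% of a day 7 library, with the first HET library at the top.

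The table of RefSeq promoters (GRCh38.p14) held 7 of the 9 genes. The neuroligins are shown because all 3 have an entry and their changes differ. The windows of NLGN1 and NLGN2 hold no annotated exon, and that of NLGN3 is cut where its own exon begins. Each line gives up to 250 bases before an annotated start, ended at the first annotated exon, with capitals marking E-boxes (CANNTG on both strands), the motif class bound by proneural factors such as NGN2. The regions are chr3:173395702-173395951 and chr3:173397494-173397743 for the 2 starts of NLGN1, chr17:7407595-7407844 for NLGN2 and chrX:71144591-71144830 for NLGN3, all on the plus strand.
NLGN1, first start: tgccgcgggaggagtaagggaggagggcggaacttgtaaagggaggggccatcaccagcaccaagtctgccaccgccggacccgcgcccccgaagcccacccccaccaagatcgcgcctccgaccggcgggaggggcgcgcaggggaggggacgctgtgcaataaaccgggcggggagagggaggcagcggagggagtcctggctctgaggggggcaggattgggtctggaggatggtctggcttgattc
NLGN1, second start: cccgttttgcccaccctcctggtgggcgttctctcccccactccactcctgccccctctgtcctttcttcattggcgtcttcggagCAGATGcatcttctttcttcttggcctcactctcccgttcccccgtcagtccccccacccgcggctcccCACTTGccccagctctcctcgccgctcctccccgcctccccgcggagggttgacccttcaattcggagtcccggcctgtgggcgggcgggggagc
NLGN2: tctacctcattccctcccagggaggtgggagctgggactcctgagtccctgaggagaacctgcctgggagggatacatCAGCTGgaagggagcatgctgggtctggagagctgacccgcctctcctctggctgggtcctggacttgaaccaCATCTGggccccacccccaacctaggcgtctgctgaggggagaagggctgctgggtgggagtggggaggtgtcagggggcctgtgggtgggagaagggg
NLGN3: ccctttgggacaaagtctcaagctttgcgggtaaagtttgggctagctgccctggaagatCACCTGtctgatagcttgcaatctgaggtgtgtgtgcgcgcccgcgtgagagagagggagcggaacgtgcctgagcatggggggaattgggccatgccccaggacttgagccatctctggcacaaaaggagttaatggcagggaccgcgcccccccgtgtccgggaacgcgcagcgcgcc
The first NLGN1 window held no E-box, while the second held 2, NLGN2 held 2 and NLGN3 held 1. The starts that end the NLGN2 window and the second NLGN1 window lie 2971 and 1460 bases downstream of the gene start of GENCODE 29. Both windows therefore lie inside the annotated gene, though they hold no annotated exon. Taking for each of the 7 genes the window nearest that gene start, 5 held an E-box, beside 61.8% of all 35116 windows. CAGATG, or its complement CATCTG, was found in 1 of these 7 windows (NLGN2) and in 12.2% of all windows.

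The genes differed widely in level. On the TPM scale, which is per length and so allows genes to be compared within a library, the order in WT at day 0 was HOMER1 (16.3 ± 1.95), NLGN2 (14.0 ± 2.72), DLG4 (10.8 ± 0.931), SHANK2 (8.54 ± 1.59), NLGN3 (7.41 ± 0.811), NLGN1 (4.18 ± 1.16), SHANK3 (2.63 ± 0.471), DLG2 (0.968 ± 0.135) and SHANK1 (0.828 ± 0.0780; SD, n = 4 throughout). At day 7 DLG4 led in each genotype, with 34.6 ± 5.54 TPM in WT, 95.5 ± 53.4 TPM in HET and 68.3 ± 16.8 TPM in KO. NLGN2 came next in all of them. The last place was held by NLGN3 in WT at day 7 (0.373 ± 0.202 TPM) and by DLG2 in KO (0.985 ± 0.149 TPM). In the WT order at day 0, neighbours differed by more than the sum of their SDs only between NLGN3 and NLGN1 and between SHANK3 and DLG2.

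**Figure D1:**
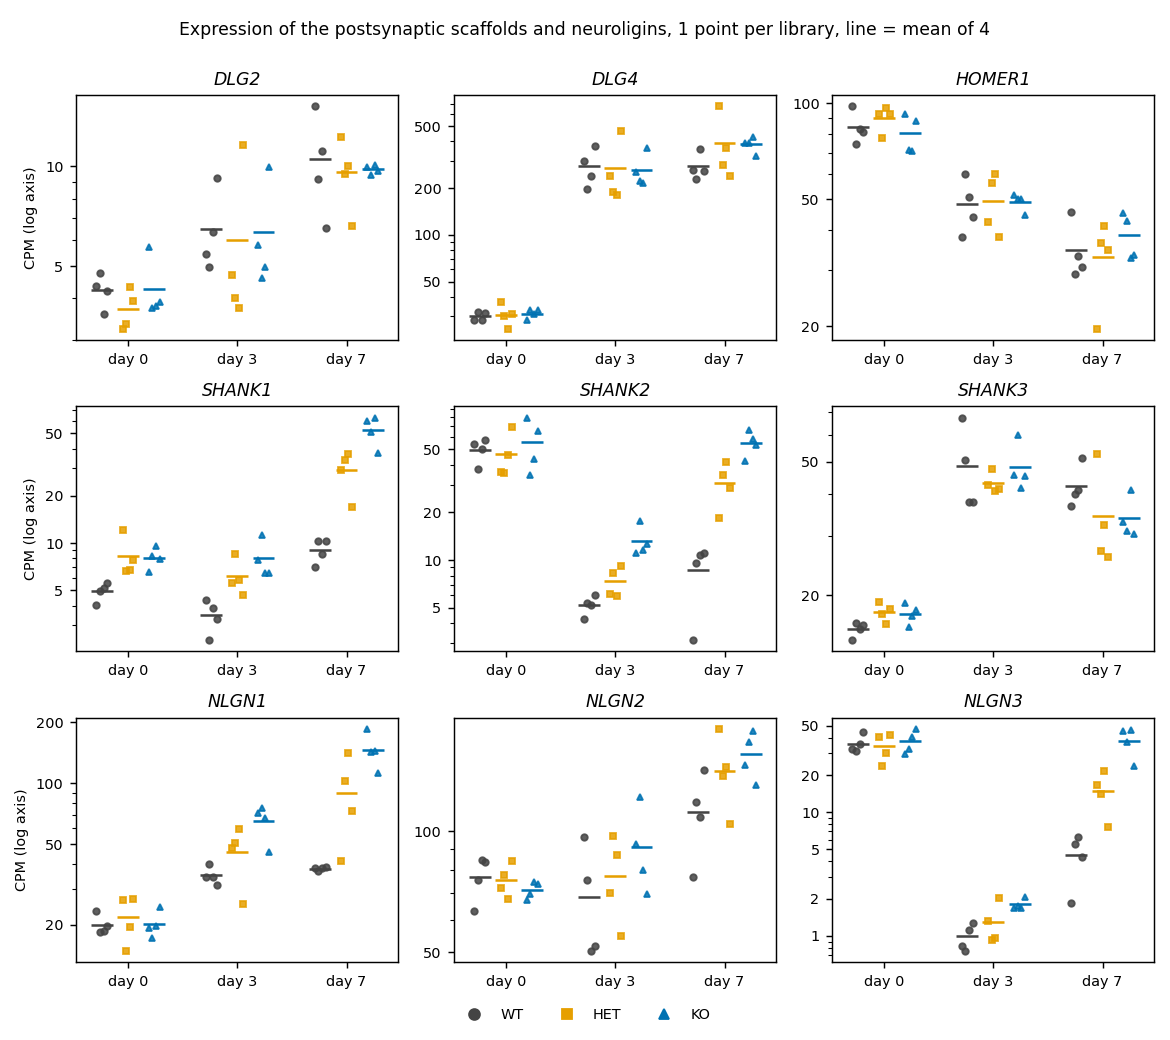
CPM (log axis) of the 9 genes by day; each point is 1 library and each line the mean of 4 libraries of a genotype. DLG4 lies at 24.8 to 37.2 CPM at day 0 and at 182 CPM or more afterwards in every library. At day 7 the genotypes are all apart for SHANK1, SHANK2 and NLGN3, whereas for NLGN1 HET and KO overlap above WT.

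The first question was how these genes moved during WT differentiation. From day 0 to day 3 in WT, 6 of the 9 passed edgeR's quasi-likelihood test with Benjamini-Hochberg adjustment over all genes at 0.05, beside 60% of all 22268 genes tested. DLG4, SHANK3 and NLGN1 rose (31.2% of all genes were higher) and NLGN3, SHANK2 and HOMER1 fell (28.7% lower). From day 3 to day 7 in WT, 5 passed, beside 46.2% of all genes: NLGN3, SHANK1, NLGN2 and DLG2 were higher (23.3%) and HOMER1 lower (22.9%). The members' counts lay near these background shares. A lower level in bulk RNA may be fewer cells of a type or less RNA per cell, and these cannot be told apart.

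DLG4, on chr17:7187169-7219841 (minus strand, coordinates from GENCODE 29 on GRCh38), gave the largest rise of the 9 from day 0 to day 3 in WT. Its 4 WT libraries read 28.3, 32.0, 28.3 and 31.3 CPM at day 0, then 299, 197, 239 and 376 CPM at day 3 and 263, 230, 357 and 257 CPM at day 7. Each later library lay above every day 0 library. The rise to day 3 was 3.21 log2 (SE 0.20, adjusted p = 1.34e-08), and days 3 and 7 did not differ by the test (adjusted p = 0.991). HET rose by 3.17 log2 and KO by 3.06 log2 to day 3. DLG4 overlaps ACADVL on the opposite strand, a metabolic gene with a mean of 3717 counts against 8403 for DLG4. Whether counting used strand is not given in the sources used here, so the DLG4 level is uncertain to that extent.

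DLG2, which spans 2173 kb on chr11:83455012-85627922 (minus strand), was low throughout. WT libraries read 4.37, 4.78, 3.59 and 4.2 CPM at day 0, 5.44, 4.96, 6.33 and 9.23 CPM at day 3, and 15.2, 9.14, 11.2 and 6.52 CPM at day 7. Days 0 and 3 were apart without passing the test (0.61 log2, adjusted p = 0.0561), and days 3 and 7 overlapped. The rise to day 7 was 0.70 log2 (SE 0.26, adjusted p = 0.0387), and it did not pass without WT day 3 replicate 1, 2 or 3 or WT day 7 replicate 1 or 3 (0.46 to 0.69 log2, adjusted p = 0.0775 to 0.135). HOMER1, on chr5:79372636-79514217 (minus strand), went the other way. It read 97.8, 74.7, 82.9 and 81.3 CPM at day 0, 38.2, 60.0, 51.0 and 44.1 CPM at day 3, and 45.7, 29.2, 33.2 and 30.8 CPM at day 7 in WT. The fall to day 3 was -0.81 log2 (SE 0.17, adjusted p = 0.00093), with no overlap. The further fall to day 7 was -0.47 log2 (SE 0.17, adjusted p = 0.0364) and was lost without WT day 3 replicate 2 or 3 or WT day 7 replicate 2, 3 or 4 (adjusted p up to 0.107).

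The SHANK genes separated from each other. SHANK2, on chr11:70467856-71252577 (minus strand), fell in WT from 53.9, 37.5, 50.1 and 57.1 CPM at day 0 to 4.24, 5.39, 5.21 and 6.01 CPM at day 3. All day 3 libraries lay below all day 0 libraries, a difference of -3.26 log2 (SE 0.31, adjusted p = 7.04e-07). SHANK3, on chr22:50674415-50733298 (plus strand), is the SHANK gene lost in Phelan-McDermid syndrome. It rose from 14.7, 16.5, 15.8 and 16.3 CPM to 67.6, 50.5, 37.8 and 37.8 CPM over the same days, by 1.61 log2 (SE 0.18, adjusted p = 3.33e-06). SHANK1, on chr19:50661827-50719450 (minus strand), stood at 4.04, 4.97, 5.17 and 5.6 CPM at day 0 and 4.35, 2.41, 3.88 and 3.28 CPM at day 3 (-0.50 log2, adjusted p = 0.0577). It then reached 7.04, 10.4, 8.46 and 10.3 CPM at day 7, above every day 3 library (1.38 log2, SE 0.22, adjusted p = 0.000129).

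NLGN3, on chrX:71144831-71171201 (plus strand), had the widest swing of the 9 genes in WT. It read 32.4, 31.2, 35.6 and 44.6 CPM at day 0 and 0.83, 0.751, 1.12 and 1.27 CPM at day 3, which were 45, 33, 47 and 49 counts. The fall was -5.18 log2 (SE 0.34, adjusted p = 2.06e-08). By day 7 the libraries were at 1.83, 5.52, 6.36 and 4.38 CPM, 2.19 log2 above day 3 (SE 0.32, adjusted p = 5.57e-05). NLGN1, on chr3:173396284-174286644 (plus strand), rose from 23.4, 18.5, 18.6 and 19.9 CPM to 34.6, 39.9, 34.6 and 31.6 CPM at day 3 (0.80 log2, SE 0.12, adjusted p = 4.6e-05). It then read 38.2, 36.9, 38.1 and 38.4 CPM at day 7. NLGN2, on chr17:7404874-7419860 (plus strand), stayed between 50.3 and 142 CPM in WT. Its gain from day 3 to day 7 was 0.71 log2 (SE 0.22, adjusted p = 0.0152), and it was lost without WT day 3 replicate 3 (adjusted p = 0.0546) or WT day 7 replicate 4 (adjusted p = 0.0527).

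The deposited TPM values scale these changes differently. On log2(TPM + 1) the median difference of 16356 genes was shifted by -0.63 log2 from the CPM scale for WT day 3 against day 0. NLGN1 was then -0.14 log2 at day 3 against day 0, the opposite sign to its CPM change, and 0.53 log2 above the median gene. SHANK3 did not pass by limma on TPM in WT (0.40 and 0.34 log2, adjusted p = 0.3 and 0.276 with pseudocounts of 0.1 and 1), nor in HET or KO. SHANK1 (-1.58 log2, adjusted p = 0.000225) and NLGN2 (-1.26 log2, adjusted p = 0.00412, both with 0.1) passed by limma on TPM as lower at day 3 in WT. On log2(TPM + 1), however, SHANK1 was 0.08 log2 above the median gene in this comparison, and NLGN2 was -0.46 log2 from it. For the comparisons with WT the same shift was 0.29 log2 in KO at day 3, 0.29 log2 in KO at day 7 and 0.62 log2 in HET at day 7.

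HET and KO followed the same main steps. From day 0 to day 3, 6 genes passed in HET (3 higher, 3 lower) beside 48.3% of all genes (24.4% higher, 23.9% lower). In KO 6 passed as well, beside 59.3% (29.7% higher, 29.6% lower). In both, DLG4, SHANK3 and NLGN1 rose and NLGN3, SHANK2 and HOMER1 fell. From day 3 to day 7, 6 passed in HET beside 41.2% of genes (20.8% higher, 20.5% lower), with SHANK1, SHANK2, NLGN1, NLGN2 and NLGN3 higher and HOMER1 lower. In KO 8 passed beside 47.8% (24.3% higher, 23.6% lower): SHANK1, SHANK2, DLG2, DLG4 and the 3 neuroligins were higher, and SHANK3 was lower by -0.45 log2 (adjusted p = 0.0142). The HET calls of HOMER1 (adjusted p = 0.0427) and NLGN1 (adjusted p = 0.035) were lost without any of several single libraries, to adjusted p = 0.113 and 0.133 at most. The NLGN1 rise to day 3 in HET (adjusted p = 0.0202) was lost without HET day 0 replicate 2 or 3 or HET day 3 replicate 3 (adjusted p = 0.0502 to 0.0624). Lost in the same way was the KO call of DLG2 (adjusted p = 0.0371; 0.119 at most) and that of DLG4 without KO day 3 replicate 3 (adjusted p = 0.0543).

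The levels at the other stages complete the picture. SHANK2 stood at 49.6 ± 8.58 CPM in WT, 46.7 ± 15.9 CPM in HET and 55.7 ± 20.6 CPM in KO at day 0, and KO at day 7 overlapped these groups. The same held for NLGN3, at 36 ± 6.04, 34.1 ± 8.82 and 37.6 ± 8.02 CPM at day 0. For DLG4, SHANK3 and HOMER1 the day 0 groups were apart from all later groups. Within the order of the 9 groups by mean, neighbouring groups of DLG2 and NLGN2 overlapped throughout, whereas for SHANK1 KO at day 7 was apart from HET at day 7, which was apart from WT at day 7.

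Genotypes were next compared within each day. At day 0 none of the 9 genes passed by edgeR in KO against WT (2.08% of all 20437 genes did), in HET against WT (1.63%) or in KO against HET (0.856%). At an unadjusted p under 0.05 the counts were 2, 2 and 0. DESeq2 called 1 gene, SHANK1, in each comparison with WT. SHANK1 read 12.1, 6.66, 6.76 and 7.81 CPM in HET and 6.51, 8.33, 9.56 and 7.91 CPM in KO, all above the WT libraries, whose highest was 5.6 CPM. The difference was 0.76 log2 (SE 0.20, adjusted p = 0.0965) in HET and 0.74 log2 (SE 0.20, adjusted p = 0.0876) in KO.

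**Figure D2:**
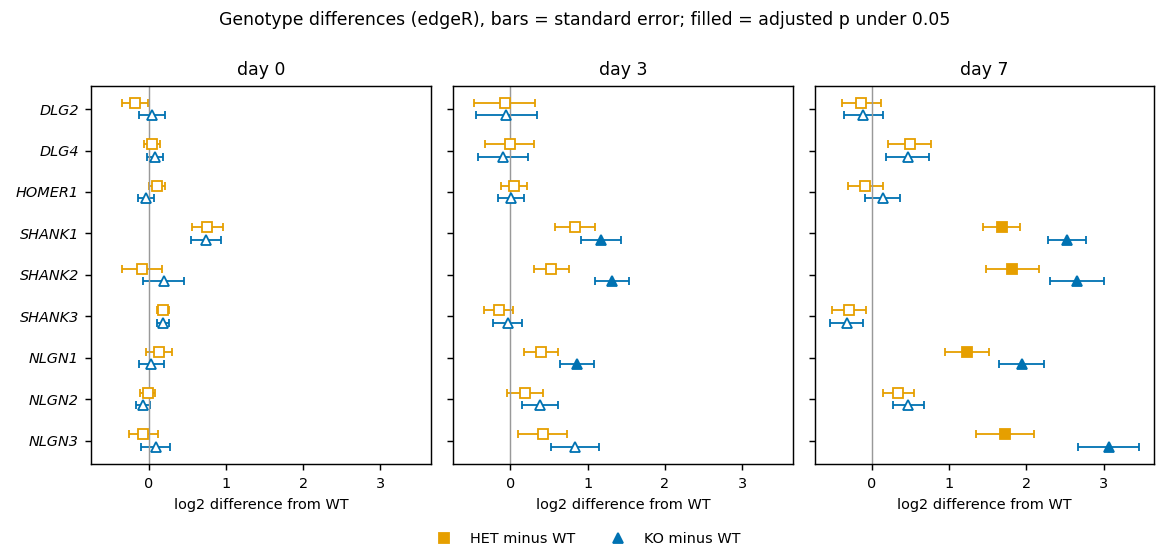
Difference of HET (squares) and KO (triangles) from WT for each gene at days 0, 3 and 7, on a log2 axis, with standard errors; filled symbols passed edgeR's test at an adjusted p under 0.05. SHANK1, SHANK2, NLGN1 and NLGN3 are filled for both genotypes at day 7, and NLGN3 in KO is farthest to the right at 3.07.

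At day 3, KO exceeded WT for SHANK1, SHANK2 and NLGN1, so 3 of 9 genes passed, all higher. Of all 21563 genes tested, 21.6% passed and 12.6% were higher. Median differences were 0.39 log2 over the 9 genes and -0.05 log2 over all genes tested. In SHANK2, KO libraries at 11.1, 17.8, 11.5 and 12.6 CPM all lay above WT, whose highest was 6.01 CPM (1.32 log2, SE 0.22, adjusted p = 0.00103). In SHANK1, KO read 7.86, 11.3, 6.41 and 6.49 CPM, above a WT maximum of 4.35 CPM (1.17 log2, SE 0.26, adjusted p = 0.00637). In NLGN1, KO read 71.7, 75.4, 67.2 and 45.9 CPM, above a WT maximum of 39.9 CPM (0.86 log2, SE 0.22, adjusted p = 0.0132). These 3 genes encode a scaffold pair and an adhesion molecule of excitatory synapses. On the deposited TPM values none of the 3 passed by limma (adjusted p = 0.0808, 0.0952 and 0.25 for SHANK1, SHANK2 and NLGN1 with a pseudocount of 0.1), though each was higher in KO.

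NLGN3 stood apart at day 3 without passing. KO read 1.69, 1.75, 1.69 and 2.08 CPM, each above every WT library, at 0.84 log2 (SE 0.32, adjusted p = 0.0761). With the replicate number as a block the adjusted p was 0.0206 (edgeR). With the structural RNA share as a covariate it was 0.0175 (edgeR), and by DESeq2 it was 0.028. The remaining 5 genes lay between -0.10 log2 (DLG4) and 0.39 log2 (NLGN2) and overlapped WT. In HET at day 3 none of the 9 passed by edgeR (3.28% of all genes did), with 2 at an unadjusted p under 0.05 and 1 by DESeq2. The HET values were 0.84 log2 for SHANK1, 0.53 log2 for SHANK2, 0.42 log2 for NLGN3 and 0.40 log2 for NLGN1. KO against HET gave 0 calls by edgeR (4.35% of all genes), 1 at an unadjusted p under 0.05 and 1 by DESeq2; SHANK2 was 0.79 log2 higher in KO (adjusted p = 0.0622) with no overlap.

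At day 7 the same 4 genes stood above WT in both mutant groups. In KO 4 of 9 passed, all higher (32.6% of all 21714 genes passed, 17% higher), and in HET 4 of 9, all higher (14.4% passed, 8.31% higher). Median differences over the 9 genes were 0.47 log2 in KO and 0.49 log2 in HET, beside -0.04 log2 and 0.00 log2 over all genes. NLGN3 read 45.6, 36.8, 46.1 and 23.7 CPM in KO and 16.5, 13.9, 21.8 and 7.58 CPM in HET, against at most 6.36 CPM in WT. Neither mutant group overlapped WT, and the lowest KO library lay above the highest HET library. The difference from WT was 3.07 log2 (8.37-fold, SE 0.39, adjusted p = 0.000157) in KO and 1.72 log2 (3.29-fold, SE 0.37, adjusted p = 0.00931) in HET. KO thereby reached a mean of 38.1 ± 10.5 CPM, beside 37.6 ± 8.02 CPM in KO at day 0.

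SHANK2 behaved in a similar manner. It read 42.3, 66.0, 58.3 and 53.5 CPM in KO and 18.5, 34.5, 41.8 and 28.4 CPM in HET, against 3.13, 9.67, 10.8 and 11.1 CPM in WT. All 3 groups were apart. The differences from WT were 2.66 log2 (6.31-fold, SE 0.35, adjusted p = 0.000199) in KO and 1.82 log2 (3.52-fold, SE 0.34, adjusted p = 0.00462) in HET. SHANK1 read 59.5, 50.9, 63.0 and 37.4 CPM in KO and 29, 33.9, 36.9 and 17.1 CPM in HET, and the 3 groups were again apart, with WT at most 10.4 CPM. It was 2.53 log2 (5.78-fold, SE 0.25, adjusted p = 2.81e-05) higher in KO and 1.68 log2 (3.20-fold, SE 0.24, adjusted p = 0.00109) higher in HET.

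NLGN1 had the smallest change of the 4 on the count scale. On log2(TPM + 1) it was 1.86 log2 in KO, above SHANK1 (1.62) and SHANK2 (1.56), and 1.54 log2 in HET, above the other 3. That pseudocount exceeded the WT mean TPM at day 7 of SHANK1 (0.4725), SHANK2 (0.6675) and NLGN3 (0.3725), but not of NLGN1 (3.75). It shrank the differences of those 3 genes more, so the order on log2(TPM + 1) does not rank the changes. In CPM NLGN1 read 186, 143, 144 and 113 CPM in KO and 41.5, 103, 140 and 73.3 CPM in HET, with WT between 36.9 and 38.4 CPM. HET was the most variable group here, with a CV of 47.1% against 1.85% in WT. The differences were 1.94 log2 (3.83-fold, SE 0.29, adjusted p = 0.000408) in KO and 1.23 log2 (2.34-fold, SE 0.28, adjusted p = 0.0121) in HET. On log2(TPM + 1) none of the 4 HET differences passed by limma (adjusted p = 0.0849 to 0.1), nor did SHANK2 in KO (adjusted p = 0.0517). On log2(TPM + 0.1) NLGN1 in HET was the only one of these not to pass by limma (1.72 log2, adjusted p = 0.0611). The HET difference of NLGN1 also did not pass when the share of small structural RNA was a term of the fit (0.66 log2, adjusted p = 0.0708). A pair of libraries stood out at day 7. The first HET library held 27.5% small structural RNA, the lowest NLGN1 and HOMER1 and the highest DLG4 (672 CPM) of its group. The first WT library held 25.6% with the lowest SHANK2 and NLGN3 but the highest HOMER1 of its group. The third WT library held 23.5% with the highest NLGN3 of that group. All 4 calls in each mutant remained when any 1 library was left out, HET replicate 1 and WT replicate 1 included.

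The other 5 genes did not pass at day 7. NLGN2 read 146, 166, 178 and 130 CPM in KO and 77.1, 118, 109 and 142 CPM in WT (0.47 log2, SE 0.20, adjusted p = 0.09). DLG4 read 390, 390, 430 and 320 CPM in KO (0.46 log2, adjusted p = 0.221). SHANK3, at 33.1, 31.0, 41.1 and 30.4 CPM in KO, was -0.33 log2 from WT (adjusted p = 0.262). On log2(TPM + 1) SHANK3 was 0.16 log2 in KO and 0.41 log2 in HET, so the sign of its difference depended on the scale, and it passed on neither with all libraries in the fit. HOMER1 and DLG2 were 0.14 log2 and -0.11 log2 from WT in KO, and -0.09 log2 and -0.14 log2 in HET. On log2(TPM + 1) DLG2 was 0.06 log2 in KO and 0.33 log2 in HET, and HOMER1 was 0.26 log2 in HET. The signs of DLG2 in both mutants and of HOMER1 in HET thus also depended on the scale. In HET these 5 genes lay between -0.30 log2 (SHANK3) and 0.49 log2 (DLG4). A single library or the structural RNA share decided 3 of these results. SHANK3 fell in HET without HET replicate 1 (-0.61 log2, adjusted p = 0.00791), NLGN2 passed in KO without WT replicate 4 (0.60 log2, adjusted p = 0.0451), and DLG4 passed in KO with the share as a covariate (0.79 log2, adjusted p = 0.0255).

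KO against HET at day 7 gave 0 calls among the 9 by edgeR (1.4% of all genes passed), 4 at an unadjusted p under 0.05 and 2 by DESeq2 (SHANK1 and NLGN3). With the structural RNA share as a covariate 3 passed (SHANK1, NLGN1 and NLGN3). NLGN3 was 1.35 log2 higher in KO (SE 0.37, adjusted p = 0.111), SHANK1 0.85 log2 (SE 0.23, adjusted p = 0.114), SHANK2 0.84 log2 (SE 0.33, adjusted p = 0.281) and NLGN1 0.71 log2 (SE 0.28, adjusted p = 0.281). KO and HET libraries were apart for NLGN3, SHANK1 and SHANK2 and overlapped for NLGN1. An order of WT, HET and KO in rising level was therefore present in the libraries of 3 genes, and the step from HET to KO did not pass the test over all genes.

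Whether the genotype difference itself grew with time was tested with an interaction term over the 36 libraries. Between day 3 and day 7 the change in KO exceeded that in WT for 4 of 9 genes, all higher (18.5% of all 24764 genes passed, 7.6% higher). The extra change was 2.21 log2 for NLGN3 (SE 0.45, adjusted p = 0.000525), 1.34 log2 for SHANK1 (SE 0.34, adjusted p = 0.00453), 1.32 log2 for SHANK2 (SE 0.42, adjusted p = 0.0243) and 1.05 log2 for NLGN1 (SE 0.34, adjusted p = 0.0286). NLGN1 was lost without KO day 3 replicate 4 (adjusted p = 0.0649) or KO day 7 replicate 1 (adjusted p = 0.0762), and SHANK2 without KO day 7 replicate 2 (adjusted p = 0.0546). On the TPM scale NLGN3 alone passed. In HET against WT over the same days 0 of 9 passed by edgeR (4.74% of all genes), with 4 at an unadjusted p under 0.05 and 2 by DESeq2. Between day 0 and day 3, 0 of 9 passed in KO (8.55% of all genes; 2 unadjusted, 1 by DESeq2) and 0 of 9 in HET (0.271%; 0 unadjusted, 0 by DESeq2).

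Markers of cell state moved with these differences. The 7 pluripotency markers summed to 217 to 325 CPM in WT, 255 to 447 CPM in HET and 339 to 458 CPM in KO at day 3. At day 7 they summed to 67.9 to 108 CPM in WT, 103 to 202 CPM in HET and 290 to 357 CPM in KO. The sum in KO was thus above WT in every library on both days. At day 3 NANOG was at 3 counts or fewer throughout KO but not throughout WT or HET, and TDGF1 was so in each genotype. At day 7 POU5F1 was so throughout KO only, NANOG throughout WT only and L1TD1 throughout HET only, beside TDGF1 in each. The summed neuronal markers at day 3 were 1405 to 1748 CPM in WT, 2038 to 4996 CPM in HET and 5350 to 8682 CPM in KO, with all 10 above 3 counts in some library of each group. The 8 proliferation markers summed to 1308 to 2612 CPM in WT, 1587 to 2207 CPM in HET and 486 to 1342 CPM in KO at day 3, and to 37.6 to 245, 13.5 to 32.2 and 13.7 to 17.5 CPM at day 7. WT and KO overlapped for proliferation at day 3 and were apart at day 7. The 7 neural crest and peripheral markers summed to 10.6 to 14.7 CPM in WT, 17.4 to 51.6 CPM in HET and 104 to 240 CPM in KO at day 3, all apart (TFAP2A was at 3 counts or fewer throughout WT). At day 7 they summed to 85.1 to 226 CPM in WT, 142 to 771 CPM in HET, where replicate 1 was the highest and the next was 303 CPM, and 324 to 812 CPM in KO. The 8 astrocyte and oligodendrocyte markers were apart at day 3, at 35.5 to 38.9 CPM in WT and 44.9 to 78.8 CPM in KO, with HET at 29.8 to 57 CPM overlapping both. At day 7 they overlapped, at 115 to 340 CPM in WT, 152 to 274 CPM in HET and 90.5 to 232 CPM in KO. The 6 progenitor markers were 787 to 893 CPM in WT, 559 to 1074 CPM in HET and 453 to 539 CPM in KO at day 7. The 6 mesendoderm markers summed to at most 4.07 CPM in any library. The part of these shifts in the results above was not tested.

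**Figure D3:**
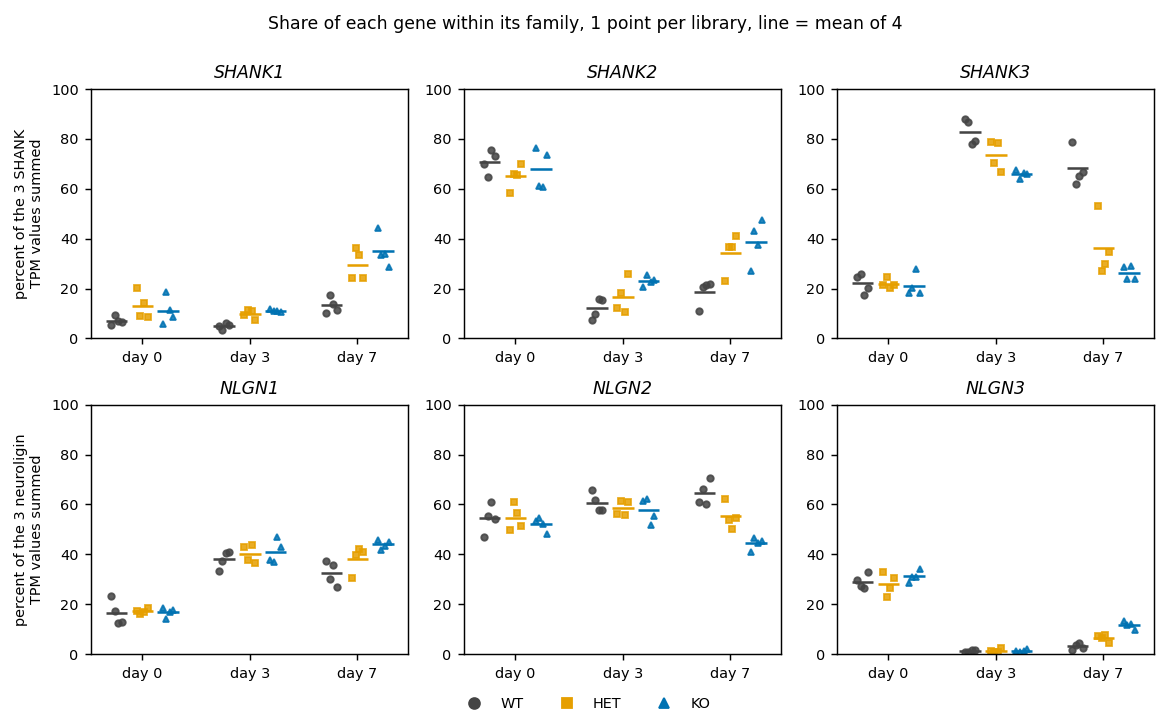
Share of each SHANK gene (top) and each neuroligin (bottom) in the summed TPM of its 3-gene family, in percent, by day and genotype; each point is 1 library and each line a mean of 4. SHANK3 holds 61.9 to 78.9% in WT at day 7 and at most 28.9% in KO.

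Shares within a family do not depend on scaling between libraries, and they showed the make-up changing. Among the SHANK genes, SHANK2 held 70.8 ± 4.53% of summed TPM in WT at day 0. At day 3 SHANK3 held 82.9 ± 5.04% of it in WT, 73.6 ± 5.98% in HET and 65.9 ± 1.59% in KO. By day 7 its WT share was 68.2 ± 7.44%, its HET share 36.1 ± 11.6% and its KO share 26.3 ± 2.91%. No mutant library reached the WT range of 61.9 to 78.9%. SHANK1 went the opposite way, from 13.2 ± 3.20% in WT at day 7 to 29.5 ± 6.13% in HET and 35 ± 6.67% in KO. Among the neuroligins, NLGN2 held the most in WT at each day, 64.5 ± 4.95% at day 7, beside 44.4 ± 2.50% in KO. NLGN3 held 29.1 ± 2.94% at day 0 in WT, 1.23 ± 0.478% at day 3 and 3.03 ± 1.2% at day 7, with 6.48 ± 1.4% in HET and 11.7 ± 1.58% in KO. NLGN1 and NLGN2 in KO at day 7 held nearly equal parts (43.9 ± 1.90% and 44.4 ± 2.50%). DLG4 held at least 95.8% of the summed TPM of DLG2 and DLG4 in every library after day 0. These shares are descriptions without a test.

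The files also tell something of which transcripts were read. Under RSEM's usual definition of FPKM, which is assumed here, the expected count and FPKM together give the effective length that the quantification assigned to a gene in a library, which falls when shorter transcripts carry more of it. This length was compared by limma where every library held at least 20 counts.

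**Figure D4:**
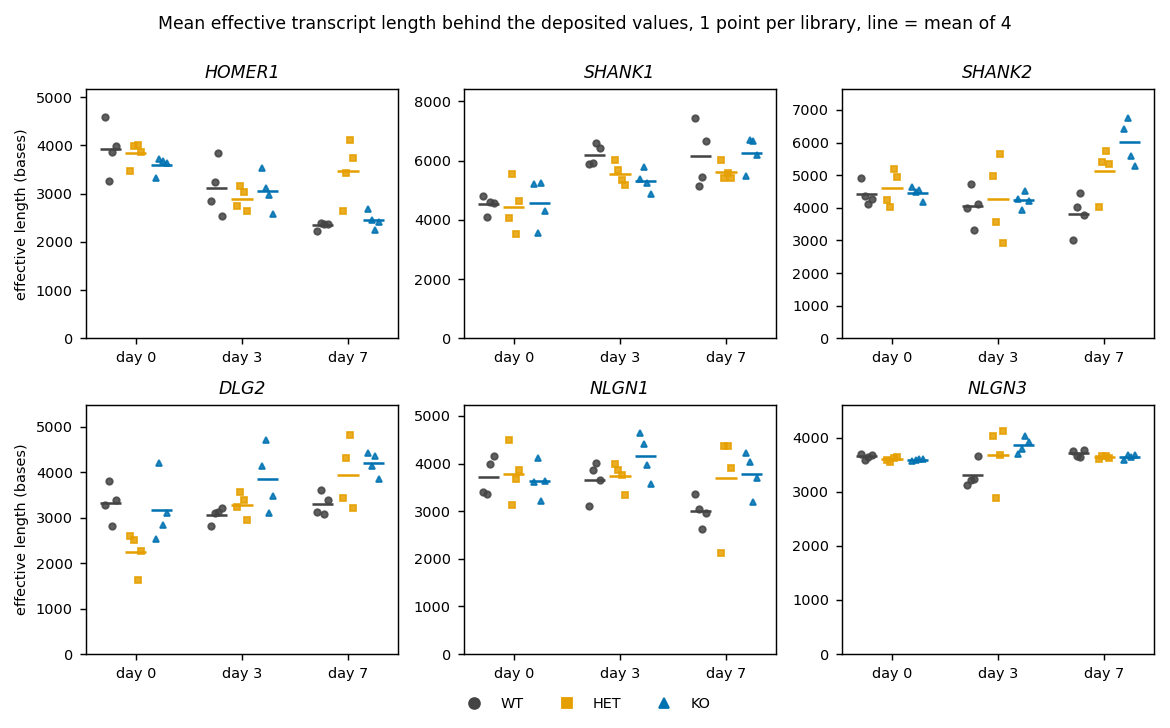
Mean effective transcript length in bases for 6 of the genes by day and genotype; each point is 1 library and each line a mean of 4. The WT means of HOMER1 are 3924 bases at day 0 and 2347 bases at day 7, and those of SHANK1 are 4519 bases at day 0 and 6196 bases at day 3.

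In WT from day 0 to day 3, 1 of 9 genes passed, SHANK1, beside 10.2% of all 14182 genes (2.73% longer). Its length was 4819, 4081, 4593 and 4582 bases at day 0 and 5894, 5906, 6577 and 6408 bases at day 3. The groups were apart, at 0.46 log2 (SE 0.11, adjusted p = 0.0294), and the call was lost without any 1 of the 8 libraries except WT day 3 replicate 2 (adjusted p up to 0.0785). From day 3 to day 7 in WT 0 of 9 passed by limma (3.68% of all genes), with 4 at an unadjusted p under 0.05. HOMER1, whose gene makes long forms with a coiled coil and a short activity-induced form without it, read 4580, 3264, 3863 and 3990 bases at day 0 and 2230, 2399, 2381 and 2379 bases at day 7 in WT. Each step was short of the threshold (-0.34 log2, adjusted p = 0.125, and -0.39 log2, adjusted p = 0.139).

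Between genotypes no length passed by limma. The counts were 0 of 9 in KO at day 3 (0.0866% of all genes; 4 unadjusted), HET at day 3 (0.04%; 2 unadjusted), KO at day 7 (0.341%; 3 unadjusted) and HET at day 7 (0.136%; 2 unadjusted). SHANK2 in KO at day 7 read 6415, 6751, 5580 and 5285 bases against 3013, 4032, 4457 and 3764 bases in WT, apart, at 0.66 log2 (SE 0.14, adjusted p = 0.0942). HOMER1 in HET at day 7 read 2646, 3420, 4117 and 3730 bases against at most 2399 bases in WT (0.55 log2, SE 0.12, adjusted p = 0.0975). KO did not share this, at 2688, 2450, 2251 and 2409 bases. Without HET replicate 1, HOMER1, SHANK2 and NLGN1 passed in HET at day 7 (0.68, 0.54 and 0.50 log2, adjusted p = 0.0026, 0.0292 and 0.0202). The genes with an annotated antisense or overlapping gene besides DLG4 had partners of at most 23.2 counts on average, and SHANK1, NLGN2 and NLGN3 overlapped none.

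Likeness of pattern was described over the 36 libraries on log2(CPM + 1), where libraries share groups and time, so no p is given. Among the 9 genes the highest Pearson r was between SHANK2 and NLGN3 (0.94) and the lowest between DLG4 and HOMER1 (-0.90). After group means were removed, those values were 0.45 and -0.61. SHANK3 and NLGN2 gave the highest within-group r (0.77), with HOMER1 and NLGN1 next (0.75). DLG4 and DLG2 also moved together within groups (0.70), and both had a positive r with the small structural RNA share there (0.58 and 0.49), while that of NLGN1 was -0.66. The part of that share in their levels was not tested beyond the covariate fits.

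Among the 16356 genes compared, members included, the nearest pattern to DLG4 was that of PSD (r = 0.99), an exchange factor for the GTPase ARF6. LINC00957 came next (0.99). NLGN3 was nearest to NTM (0.98), the adhesion protein neurotrimin, and DNAAF11 (0.98). SHANK1 was nearest to CLSTN2 (0.95), a calsyntenin of the postsynaptic membrane, and LGI2 (0.95). SHANK2 was nearest to PPM1H (0.96), a phosphatase, and VAT1L (0.96). The nearest genes of NLGN1 were ANKRD13C (0.96) and PKIA (0.96), a peptide inhibitor of protein kinase A. Those of SHANK3 were CNTROB (0.96) and FOXD1 (0.95), of HOMER1 ZNF714 (0.98) and the mismatch repair gene PMS1 (0.97), of NLGN2 PRRC2B (0.95), and of DLG2 EIF4A2 (0.92) and CAMK2G (0.92).

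Other genes of the postsynaptic side give the setting. Of 47 such genes in 6 lists, 44 were tested in KO against WT at day 3, where 20 rose and 1 fell (median 0.54 log2, beside -0.05 log2 over all genes). At day 7, 30 of 46 rose and 2 fell (median 1.16 log2, beside -0.04 log2). In HET the counts were 9 up and 0 down of 44 at day 3, and 24 up and 1 down of 46 at day 7. Of all genes, 12.6 and 17% were higher in KO on those days. In HET 3.28% passed in either direction at day 3 and 8.31% were higher at day 7.

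**Figure D5:**
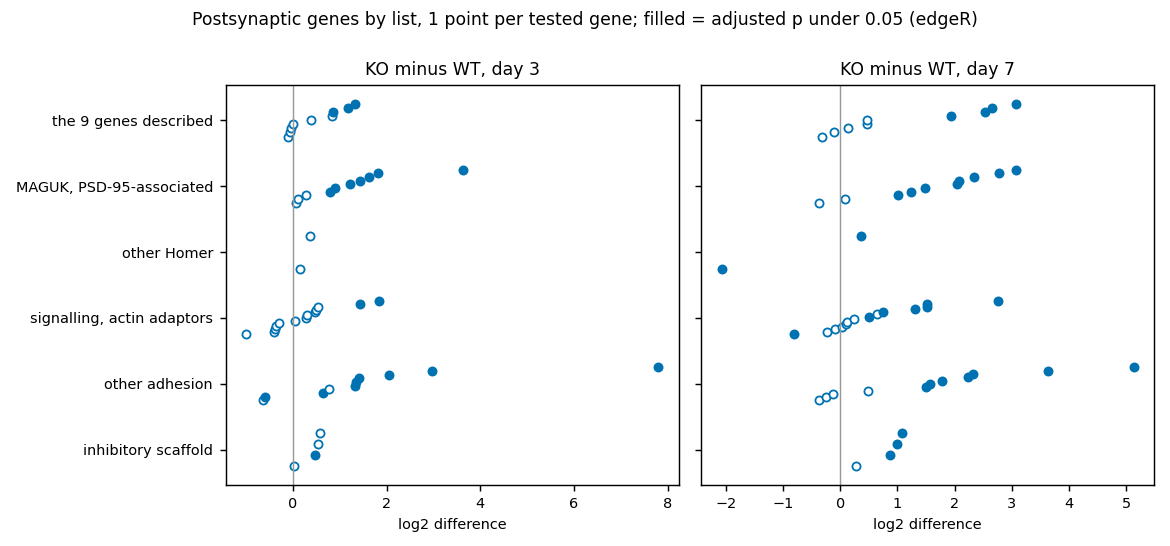
Difference of KO from WT (log2) at days 3 and 7 for each tested gene, with the 9 genes described in the top row and 5 of the other lists under it; filled points passed edgeR's test at an adjusted p under 0.05. LRRTM3 lies farthest right on both days (7.80 and 5.13) and HOMER3 farthest left at day 7 (-2.08).

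MDGA2, which covers neuroligins and keeps neurexins from them, rose in KO by 4.92 log2 at day 7 (3.10 ± 1.83 CPM against 0.0990 ± 0.0535 CPM, adjusted p = 0.000257).

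Among MAGUK proteins and partners of PSD-95, 7 of 10 rose at day 3 and 8 of 10 at day 7 in KO, with none lower. In HET the counts were 2 and 8 of 10. DLG4 itself passed in no genotype comparison by edgeR without the covariate. Of the 12 other adhesion genes, 10 and 11 were tested, and 7 rose at each day in KO. LRRTM3, a leucine-rich repeat partner of neurexins, rose by 7.80 log2 at day 3 (36 ± 15.1 CPM against 0.157 ± 0.117 CPM, adjusted p = 1.58e-06) and by 5.13 log2 at day 7 (adjusted p = 7.23e-05). SLITRK5, a postsynaptic adhesion gene, was the only one of the 47 to fall at day 3 (-0.59 log2, adjusted p = 0.013).

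Of 14 signalling and actin adaptor genes, 2 of 13 tested rose at day 3 and 6 of 14 rose at day 7 in KO, where BAIAP2, a regulator of actin at the membrane, fell by 0.81 on the log2 scale (adjusted p = 0.0334). HOMER3, a relative of HOMER1, fell to 30.9 ± 4.07 CPM from 130 ± 27.9 CPM in WT at day 7 (-2.08 log2, adjusted p = 0.000451), while HOMER2 rose by 0.36 log2 (adjusted p = 0.0334). Of the 4 genes of the inhibitory scaffold, 1 rose at day 3 and 3 at day 7 in KO, none lower. NLGN2, the neuroligin of that synapse, did not pass in either mutant at any day with all libraries in the fit.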

How the data were processed

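Gene-level RNA was measured in 36 libraries of 9 genotype-day groups (4 each), grouped by the labels, with 151 bp paired-end reads after ribosomal RNA depletion, per the labels. The submitters' processing notes name cutadapt 4.8, FastQC 0.11.8, MultiQC 1.20, STAR 2.7.8a, RSEM 1.3.3 and GRCh38; the annotation and the use of strand are not given in the sources used here. The authors deposited RSEM expected counts, TPM and FPKM per gene. The deposited expected counts were whole in every cell (0 exceptions), so no rounding was needed. The deposited TPM values are relative to library total and to length, and the deposited FPKM values served only to recover effective length (count × a constant / (FPKM × library total)). Totals were 23950041 to 56681064 counts, and 4 reporter rows were left out. Of the gene identifiers, 58274 (92.9%) matched GENCODE 29. No per-sample column lacked a sample (0).

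Counts were tested with edgeR 4.0.16 in R 4.3.3 (quasi-likelihood F test, TMM, default low-count filter, Benjamini-Hochberg over all genes at 0.05) on the 12 libraries of a day or of a genotype, and on all 36 for differences in change. SE is the log2 difference over the root of F. Effective length was tested with limma 3.58.1 where every library held 20 counts or more. Printed CPM were scaled by TMM over 36 libraries. Alternatives were DESeq2 1.42.0, its size factors, library size alone, no filter, limma on log2(TPM + 0.1) and log2(TPM + 1), 1 joint fit, the structural RNA share as a covariate, a replicate block and each library left out. The members and lists were chosen with earlier results of these data known. Beyond the 9 members, the genes named were the 2 most alike in pattern to each member and, in KO against WT at days 3 and 7, the 2 largest rises and 2 largest falls called in the other lists with a mean of at least 1 CPM in the higher group; HOMER2 was added after its values were seen. Some genes that this rule names, and 1 list, are not reported here. Same-numbered libraries deviated together (every r over 0.1) between WT and KO at day 0 (0.290 to 0.695), WT and HET at day 3 (0.165 to 0.796) and WT and KO at day 3 (0.128 to 0.588). In that order, the same number gave the highest r for 4, 2 and 2 of the 4 libraries of the first group named. No other pair of groups had every r over 0.1. Some fell short only at replicate 1: WT and HET at day 0 (-0.0411 to 0.629), HET and KO at day 0 (-0.0970 to 0.677) and HET and KO at day 3 (-0.0841 to 0.694). On simulated data for 21563 genes the genotype fit recovered 27% of 2-fold and 89% of 8-fold changes, with 6.45% of calls false; DESeq2 recovered 42% and 90%, with 25% of calls false. Figures used matplotlib 3.10.9.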

Additional observations from a re-analysis of the deposited data

Results flagged for a closer look

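In 4 of the 81 gene-group combinations examined, 1 library lay far from the other 3 of its group relative to the group's range, and chance gives about 1 in 20, or 4.05. DLG2 read 5.697 CPM in KO day 0 replicate 1 (the others 3.748 to 3.893) and 11.6 CPM in HET day 3 replicate 4 (the others 3.737 to 4.704). NLGN1 read 36.86 CPM in WT day 7 replicate 2, where the others spanned only 38.15 to 38.39 CPM. NLGN3 read 2.081 CPM in KO day 3 replicate 4, with the others at 1.686 to 1.75 CPM.

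The change from day 3 to day 7 differed between KO and WT for 4 genes by the interaction term (edgeR, adjusted over all genes). The extra change in KO was 1.34 log2 for SHANK1 (adjusted p = 0.00453), 1.32 log2 for SHANK2 (adjusted p = 0.0243), 1.05 log2 for NLGN1 (adjusted p = 0.0286) and 2.21 log2 for NLGN3 (adjusted p = 0.000525).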

How the results depend on the processing

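The processing changed counts of members called more than directions. With DESeq2, 178 of 190 level results kept their direction and side of the threshold and 12 newly passed. The count of members called was 1 with DESeq2 for HET against WT at day 0 and at day 3, KO against HET at day 3, KO against WT at day 0, and the difference in change of KO from WT between days 0 and 3. It was 2 for KO against HET at day 7 and for the difference in change of HET from WT between days 3 and 7. In 1 fit of 36 libraries, 1 member passed for HET against WT at day 3 and 2 for KO against HET at day 7. With library size alone, 3 passed for WT day 7 against day 3. With the structural RNA share as a covariate, 1 passed for KO against HET at day 3 and 3 at day 7.

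On TPM, with either pseudocount (0.1 or 1), members called were 0 for KO against WT at day 3, 3 for HET day 3 against day 0, 2 for HET day 7 against day 3, 3 for KO day 3 against day 0, 2 for KO day 7 against day 3 and 1 for the KO difference in change from day 3 to day 7. For WT day 3 against day 0 the count stayed at 6, with SHANK3 and NLGN1 lost and SHANK1 and NLGN2 gained. For WT day 7 against day 3 they were 1 with 0.1 and 0 with 1, and for HET against WT at day 7 they were 0 with 1. The TPM scale reversed the WT change from day 0 to day 3 of NLGN1 (-0.182 and -0.138 log2 with 0.1 and 1) and of RAI1 (-0.125 and -0.0877 log2). Signs of values that passed under neither setting were not counted as reversals. The cause of these changes was not tested.

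With the replicate block, 2 members passed for KO against HET at day 3 and 1 for the difference in change of HET from WT between days 3 and 7. Among the groups whose numbers paired, the block changed the call of NLGN3 in KO against WT at day 3 and no other.

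With 1 library left out, members called ranged from 0 to 1 for KO against HET at day 3, 2 to 5 for WT day 7 against day 3, 0 to 2 for the HET difference in change from day 3 to day 7 and 0 to 1 for that of KO from day 0 to day 3. For effective length they ranged from 0 to 3 in HET against WT at day 7, 0 to 1 in WT day 3 against day 0 and 0 to 1 in WT day 7 against day 3. Depth limits NLGN3 most, with 33 to 49 counts per WT library at day 3. Groups of 4 libraries limit small changes, and overlap of DLG4 with ACADVL limits its level.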
